A study of Caenorhabditis elegans with 2 samples.

Results

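The *ceh* genes of *Caenorhabditis elegans* encode homeodomain transcription factors, and their occupancy by the Hox protein LIN-39 was described here from the chromatin immunoprecipitation sequencing (ChIP-seq) lists of L4 larvae. All 63 protein-coding genes of the ce11 annotation whose symbol starts with *ceh-* were taken, out of 19973 protein-coding genes on the 6 nuclear chromosomes, so that 19910 genes remained for comparison. A region was assigned to a gene when its summit lay between 5000 bp upstream of the gene's 5′ end and its 3′ end. The measure was the rank of the region's signal value in its own list, with rank 1 as the highest. The study held 2 biological replicates of 1 group, whole larvae labelled as mixed sex from strain OP18, genotype *unc-119(ed3)* III with the transgene wgIs18. The transgene carries LIN-39 tagged with eGFP, a green fluorescent protein, and both replicates carry it in the *unc-119* mutant background. The antibody is labelled as lin-39, while the experiment is described as against the eGFP fusion. There was no untreated or untagged group among the samples. Because whole animals were used, a region present in few cells cannot be told apart from one that is weakly occupied in many. The pooled list and each replicate list held 30000 regions, and by their deposited names these hold peaks together with background. The thresholded list held 163 peaks, which were the 163 highest pooled regions. Depth is unknown for both replicates because the lists carry signal values without read numbers.

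The homeodomain is a DNA-binding domain that most often recognises short sequences around the letters TAAT. Hox proteins such as LIN-39 set positional identity along the body and commonly bind DNA together with partners of the PBC class (CEH-20 in the worm) and the MEIS class (UNC-62). Many *ceh* genes act as terminal selectors, the factors that switch on and maintain the genes that give a neuron its identity, and others pattern the pharynx, the epidermis or the mesoderm.

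The letters of 5 of the 9 regions at *ceh* genes that ranked 1000 or better in the pooled list are shown here because the results turn on these regions. The other 4, the 2 *ceh-5* regions, one of which is the highest of all, the *ceh-12* region and the one shared by *ceh-57* and *ceh-58*, are described without letters. The letters shown are the plus strand of ce11, taken from the RefSeq assembly. For *ceh-38* the part of the region upstream of the annotated 5′ end is shown, and for the others the sequence within 100 bp of the summit. The *ceh-38* summit, at position 6951551, lies outside the letters shown. That part held 4 copies of TAAT on either strand and had a GC content of 33.3%, against 1 copy and 43.8% within 100 bp of the summit. Capitals mark TAAT or its reverse complement ATTA, and GAGAGA or its reverse complement TCTCTC.
ceh-38 region, chrII:6951379-6951525: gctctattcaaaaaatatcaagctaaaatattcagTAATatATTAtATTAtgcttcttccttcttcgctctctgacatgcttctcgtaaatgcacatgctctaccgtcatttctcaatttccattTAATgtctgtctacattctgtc
ceh-48 region, chrIV:6809909-6810109: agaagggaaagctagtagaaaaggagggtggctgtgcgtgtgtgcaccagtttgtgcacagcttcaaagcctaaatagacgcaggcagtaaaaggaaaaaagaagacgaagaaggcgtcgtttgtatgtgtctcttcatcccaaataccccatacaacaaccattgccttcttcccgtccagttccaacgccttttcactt
ceh-20 region, chrIII:6978854-6979054: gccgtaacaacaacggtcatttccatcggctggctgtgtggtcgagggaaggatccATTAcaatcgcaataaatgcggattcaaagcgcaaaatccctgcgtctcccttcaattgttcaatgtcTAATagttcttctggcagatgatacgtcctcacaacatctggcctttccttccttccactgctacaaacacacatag
ceh-54 region, chrX:6196041-6196241: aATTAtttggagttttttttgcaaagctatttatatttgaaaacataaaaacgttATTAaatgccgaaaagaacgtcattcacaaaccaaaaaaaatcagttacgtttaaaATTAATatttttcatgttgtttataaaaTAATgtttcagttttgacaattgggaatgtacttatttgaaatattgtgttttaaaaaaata
ceh-19 region, chrIV:7958263-7958463: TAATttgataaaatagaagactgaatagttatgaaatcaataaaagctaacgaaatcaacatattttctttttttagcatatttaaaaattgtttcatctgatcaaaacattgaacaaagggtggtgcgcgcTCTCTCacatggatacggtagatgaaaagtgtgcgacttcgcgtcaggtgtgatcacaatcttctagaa
The *ceh-54* region was AT-rich, with a GC content of 21.4% and 5 copies of TAAT on either strand, while the *ceh-48* and *ceh-20* regions each had a GC content of 46.8%. The *ceh-48* region held no TAAT and the *ceh-20* region held 2. The core letters of the composite Hox and PBC site, TGATNNAT, were in 3 of the 9 regions, all among those without letters here, namely the higher *ceh-5* region, the *ceh-12* region and that of *ceh-57* and *ceh-58*.

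A thresholded peak lay in the window of 2 of the 63 *ceh* genes, *ceh-5* and *ceh-38*, which is 3.17% (95% Wilson interval 0.875 to 10.9%). The share over all 19973 protein-coding genes was 1.39%. With counts this small the *ceh* share was not distinguishable from the background. The interval covers counting error over genes only. A wider view came from the 1000 highest pooled regions, at least 1 of which lay in the window of 9 *ceh* genes, or 14.3% (7.70 to 25.0%), where the share over all protein-coding genes was 7.22%. That share lies just below the interval, which treats genes as independent. *ceh-57* and *ceh-58* were called through the same region, so this alone does not set the shares apart. The 9 genes were *ceh-5*, *ceh-38*, *ceh-54*, *ceh-48*, *ceh-12*, *ceh-19*, *ceh-20*, *ceh-57* and *ceh-58*, and the last 2 share 1 region. The next gene, *ceh-18*, had its highest region at rank 1121. No test was made of this difference, since the genes were chosen with earlier results of these data known and the study has 1 group.

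**Figure D1:**
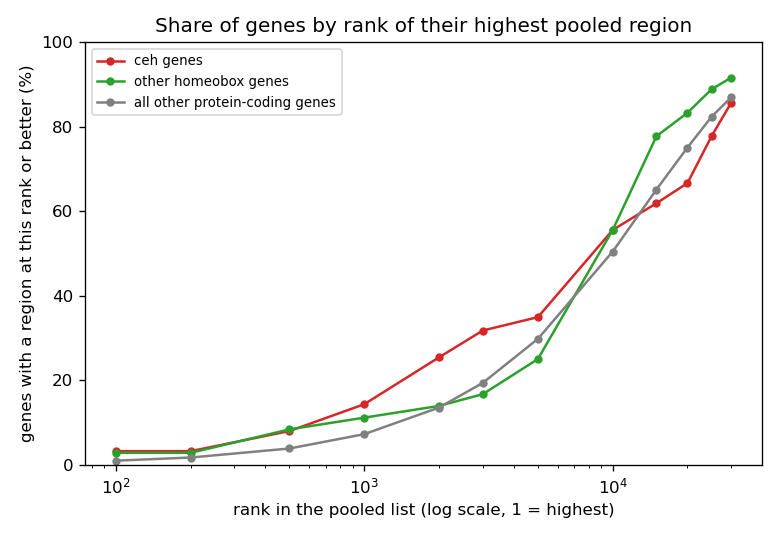
Share of genes (y axis, %) whose highest pooled region reached at least the rank on the x axis (log scale), for the 63 *ceh* genes, 36 other homeobox genes and 19910 other protein-coding genes. The *ceh* line lay above that of the other genes up to rank 10000, at 14.3% against 7.20% at rank 1000, and below it from rank 15000.

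*ceh-5*, a gene of the Vax type, had the highest region of all members. Its thresholded peak lay on chromosome I from 9725226 to 9725569, with the summit 1771 bp upstream of the *ceh-5* 5′ end and inside introns of the neighbouring genes *eat-16* and *ocrl-1*. It ranked 27 in the pooled list, 21 in replicate 1 and 49 in replicate 2. Its signal divided by the median of the list, called relative signal here, was 3.94 in replicate 1 and 3.24 in replicate 2, a mean of 3.59 ± 0.491 (SD, n = 2). Both replicates thus placed it among their highest regions, although their summits were 109 bp apart. A second region of *ceh-5*, 4934 bp upstream, ranked 759 in the pooled list, 1038 in replicate 1 and 192 in replicate 2. That one lay 481 bp from the 5′ end of *eat-16*, which is nearer than that of *ceh-5*.

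*ceh-38* encodes a ONECUT protein, one of the CUT homeodomain proteins that act together in pan-neuronal gene expression. Its thresholded peak lay on chromosome II from 6951379 to 6951722, with the summit 25 bp inside the gene, in the 5′ untranslated region. It ranked 56 in the pooled list and 25 in replicate 2, but the nearest region of replicate 1 ranked 19666. The relative signals were 0.912 in replicate 1 and 4.22 in replicate 2, a mean of 2.57 ± 2.34 (SD, n = 2). The *ceh-38* peak therefore rested on replicate 2. Without replicate 2, when as many of the highest regions of replicate 1 were taken as there are thresholded peaks, *ceh-5* alone remained and the share was 1.59%.

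*ceh-48*, another gene of the CUT and ONECUT class and one expressed across the nervous system, had its highest region 2099 bp upstream of its 5′ end, in intergenic sequence on chromosome IV from 6809837 to 6810180. It ranked 297 in the pooled list, 1165 in replicate 1 and 628 in replicate 2, and its relative signal was 1.81 ± 0.150 (SD, n = 2). The replicates gave it similar ranks, and no gene had a 5′ end nearer to it. The highest *ceh-48* region of replicate 1 was another one, at rank 504 and 2088 bp inside the gene. The *ceh-48* window held 8 pooled regions in 8500 bp. That was the highest density among the members in the pooled list, at 9.41 regions per 10 kb, followed by *ceh-7* at 9.07 and *ceh-5* at 8.52. The *ceh-48* regions 2089 and 2288 bp inside the gene, within 200 bp of each other, were counted separately here. The lowest of the 8 ranked 29400. In the replicates' own lists *ceh-58* was densest, at 13.1 in replicate 1 and 7.29 in replicate 2, where *ceh-48* had 7.06 and 5.88.

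Of the PBC genes, *ceh-20* had a region among the highest 1000 and *ceh-40* and *ceh-60* did not. CEH-20 is the worm Extradenticle and a known DNA-binding partner of LIN-39 in the vulval and mesodermal lineages. Its 1 pooled region lay on chromosome III from 6978782 to 6979125, 930 bp upstream of the 5′ end, in intergenic sequence and nearest to *ceh-20* itself. It ranked 715 in the pooled list, 1288 in replicate 1 and 742 in replicate 2, and its relative signal was 1.77 ± 0.130 (SD, n = 2). The spread between the replicates was small here. *ceh-60*, known for its part with UNC-62 in the control of yolk protein genes, had 6 pooled regions, the highest at rank 5090, 783 bp upstream. *ceh-40* had 2 pooled regions, the better at rank 28098, and no region in replicate 2.

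The other members of the highest group had regions that lay nearer to other genes, or were shared. The *ceh-12* region lay 4002 bp upstream, in an intron of *twk-47*, and ranked 369 in the pooled list, 614 in replicate 1 and 1825 in replicate 2, with a relative signal of 1.73 ± 0.187 (SD, n = 2). CEH-12 is an HB9-type factor of the ventral cord motor neurons. *ceh-19*, which acts in pharyngeal pacemaker neurons, had 1 pooled region, 2414 bp upstream, in introns of *csr-1* and *frpr-10*. It ranked 707 in the pooled list, 2039 in replicate 1 and 1272 in replicate 2, at a relative signal of 1.63 ± 0.100 (SD, n = 2). The *ceh-54* region lay 1900 bp upstream and 786 bp from the 5′ end of *daf-9*, which encodes a steroid hormone enzyme. That region ranked 267 in the pooled list, 3785 in replicate 1 and 644 in replicate 2, at a relative signal of 1.65 ± 0.360 (SD, n = 2). *ceh-57* and *ceh-58* lie next to each other on chromosome II, and their shared region, in the 3′ untranslated region of *ceh-58*, ranked 990 in the pooled list, 3621 in replicate 1 and 1624 in replicate 2, at a relative signal of 1.52 ± 0.160 (SD, n = 2). Where a region was kept only for the gene with the nearest 5′ end, 5 *ceh* genes had one among the highest 1000, or 7.94%, against 3.82% of other genes.

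**Figure D2:**
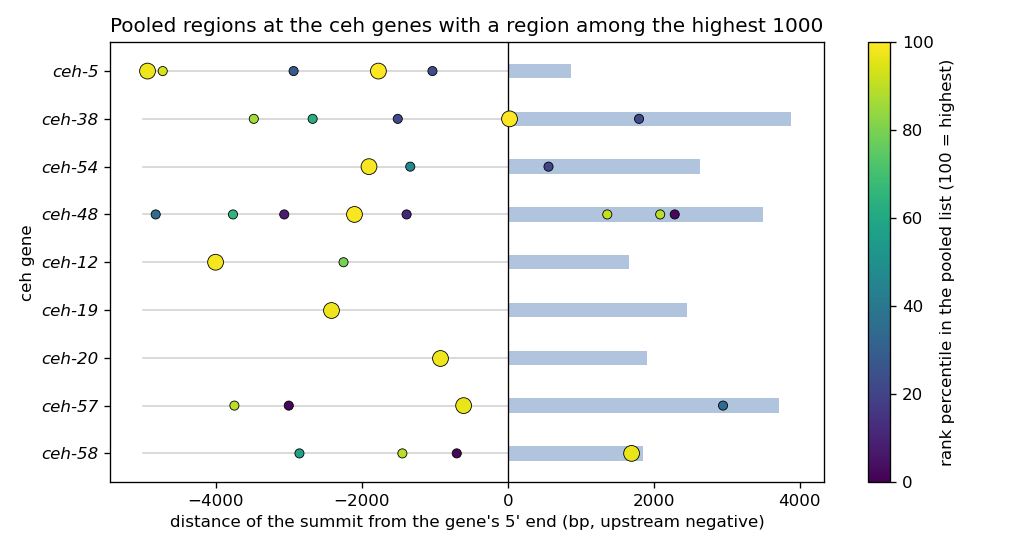
Pooled regions in the windows of the 9 *ceh* genes with a region among the highest 1000. The x axis is the distance of the summit from the gene's 5′ end in bp, bars are gene bodies, colour is the rank percentile in the pooled list, and large points are regions ranked 1000 or better; all but the *ceh-38* and *ceh-58* ones lay upstream.

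Read replicate by replicate, the calls overlapped in part, as they did over all genes. A region among the highest 1000, whether the same one or another, was found in both replicates at 3 *ceh* genes, *ceh-5*, *ceh-48* and *ceh-18*. It was found in replicate 1 only at 4 and in replicate 2 only at 5. Over all protein-coding genes, 1450 had one in replicate 1, 1423 in replicate 2 and 2469 in either. A region among the highest 1000 of replicate 1 lay in the window of 7 *ceh* genes, 11.1% (5.49 to 21.2%), where the share over all protein-coding genes was 7.26%. In replicate 2 it was 8 *ceh* genes, 12.7% (6.58 to 23.1%), with a share of 7.12% over all genes. Taking either replicate it was 12 *ceh* genes, 19.05% (11.25 to 30.4%), where all genes gave 12.4%. The same region, within 200 bp, was among the highest 1000 of both replicates at 1 *ceh* gene, *ceh-5*, which is 1.59% (0.281 to 8.46%) where all genes gave 1.32%. That is close to the background. With the highest 3000 regions of each replicate it was 5 *ceh* genes, or 7.94%, where all protein-coding genes gave 2.88%. These were *ceh-5*, *ceh-12*, *ceh-48*, *ceh-20* and *ceh-19*, and their summits in the 2 replicates were 6 to 109 bp apart.

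Other members were high in 1 replicate, or, as with *ceh-18* and also *ceh-48*, at different regions in the 2 replicates. *ceh-18*, a POU gene that acts in the gonadal sheath, had the most regions of any member, 12 in a window of 19431 bp. Its highest region in replicate 1 ranked 499 and lay in the gene body, and its highest in replicate 2 ranked 270 and lay near the 3′ end, so these were different regions. *ceh-100* had the next most after *ceh-48*, 7 in the longest window of 26503 bp, with best ranks of 2269 in replicate 1, 1022 in replicate 2 and 1759 in the pooled list. Its best regions in replicates 1 and 2 were different ones, 14504 and 9164 bp inside the gene. Replicate 1 ranked regions of *ceh-53*, *ceh-37* and *ceh-24* at 282, 735 and 938. *ceh-7* and *ceh-36*, an Otx-type gene of the ASE and AWC sensory neurons, had ranks of 252 and 602 in replicate 2. Of these 5 genes, *ceh-24* had no region at all in the other replicate, and the best rank of *ceh-36* in replicate 1 was 20147. *ceh-16*, the Engrailed gene of the seam cells, reached rank 1260 in replicate 1, against 5863 in replicate 2 and 23899 in the pooled list. The 2 replicates' best *ceh-16* regions were different ones, 1935 and 1387 bp inside the gene.

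**Figure D3:**
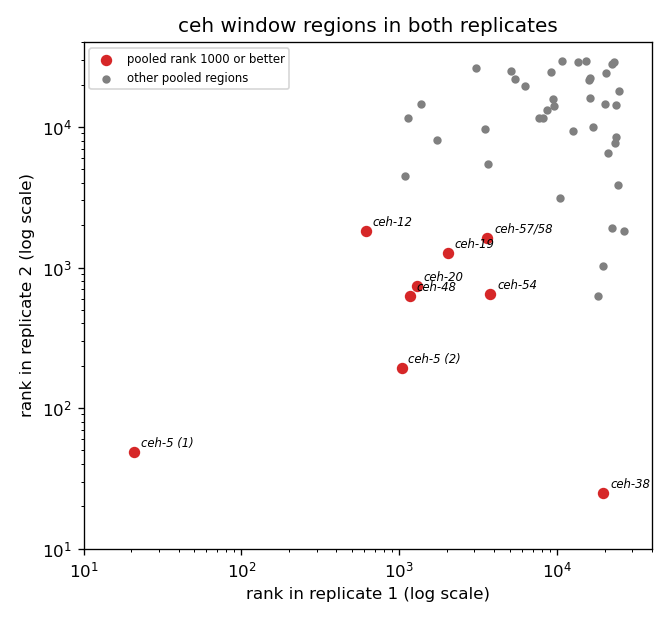
Rank in replicate 1 (x axis) and in replicate 2 (y axis), both on log scales, of the 48 pooled regions in *ceh* windows with a summit no more than 200 bp away in each replicate list. The *ceh-5* peak was low in rank number on both axes, the *ceh-38* peak on the y axis alone; (1) and (2) mark the higher and the lower *ceh-5* region.

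Over all of their regions, the values of the *ceh* genes were near those of the rest of the genome. Their windows had a median length of 7652 bp (5515 to 26503 bp), against 7026 bp for other genes. They held 2.94 pooled regions per 10 kb against 2.93 for other genes. The densities were 3.33 against 2.96 per 10 kb in replicate 1 and 2.94 against 2.92 in replicate 2. The windows contained 154 different pooled regions, 3 of them in the windows of 2 *ceh* genes. Their median rank percentile, where 100 is the highest region, was 55.2, against 49.98 for the remaining 29846 pooled regions. Against regions in windows of other genes, whose median in the pooled list was 49.76, the direction differed between the replicates' own lists. The median percentile was 46.2 against 50.1 in replicate 1 and 52.2 against 50.03 in replicate 2. Both replicate lists had a summit within 200 bp for 48 of the 154, or 31.2%, against 30.1% of the remaining regions. Among those 48, a subset found in every list, the median percentile was 66.6 in replicate 1 and 64.2 in replicate 2, against 58.4 and 58.8 for the remaining regions found in both.

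Within the windows, the regions were spread over upstream and transcribed sequence. The upstream 5000 bp held 2.92 regions per 10 kb and the gene bodies 2.96, against 2.97 and 2.86 for other genes. The 1000 bp just upstream of the 5′ end held a pooled region at 13 *ceh* genes, 20.6%, where the share over all protein-coding genes was 29.5%. The density there was 2.22 per 10 kb, against 3.21 for other genes. Of the 154 summits, 67 lay in introns, 47 in intergenic sequence, 30 in coding exons, 7 in 3′ and 3 in 5′ untranslated regions. For 94 of them, or 61.0%, the nearest 5′ end was that of a *ceh* gene, and 42 lay in the body of another protein-coding gene only.

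By window length, the higher share of *ceh* genes with a region among the highest 1000 of the pooled list was seen in short and middle windows. It was 4 of 24 *ceh* genes, 16.7%, against 5.13% of other genes with windows under 7000 bp. From 7000 bp to under 10000 bp it was 5 of 30, also 16.7%, against 7.46%. With windows of 10000 bp or more it was 0 of 9, against 418 of 3223 other genes. Replicate 1 did not show this pattern. Its own list gave 2 of 30 against 536 of 6852 in middle windows, and 3 of 9 against 387 of 3223 in long ones. Replicate 2 gave 4 of 30 against 489 of 6852, and 1 of 9 against 436 of 3223. With counts this small, the length classes cannot be set apart. By chromosome, 8 of the 45 autosomal *ceh* genes had such a region, 17.8% against 6.80% of other autosomal genes. Of the 18 *ceh* genes on X it was 1, *ceh-54*, 5.56% against 9.77% of other X genes. These chromosome counts are those of the pooled list. In the replicates' own lists, X gave 2 of 18 in replicate 1 and 3 of 18 in replicate 2, against 265 and 286 of 2713. The autosomes gave 5 of 45 in each replicate, against 1178 and 1129 of 17197. The direction on X thus differed between lists, and the counts there are small.

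**Figure D4:**
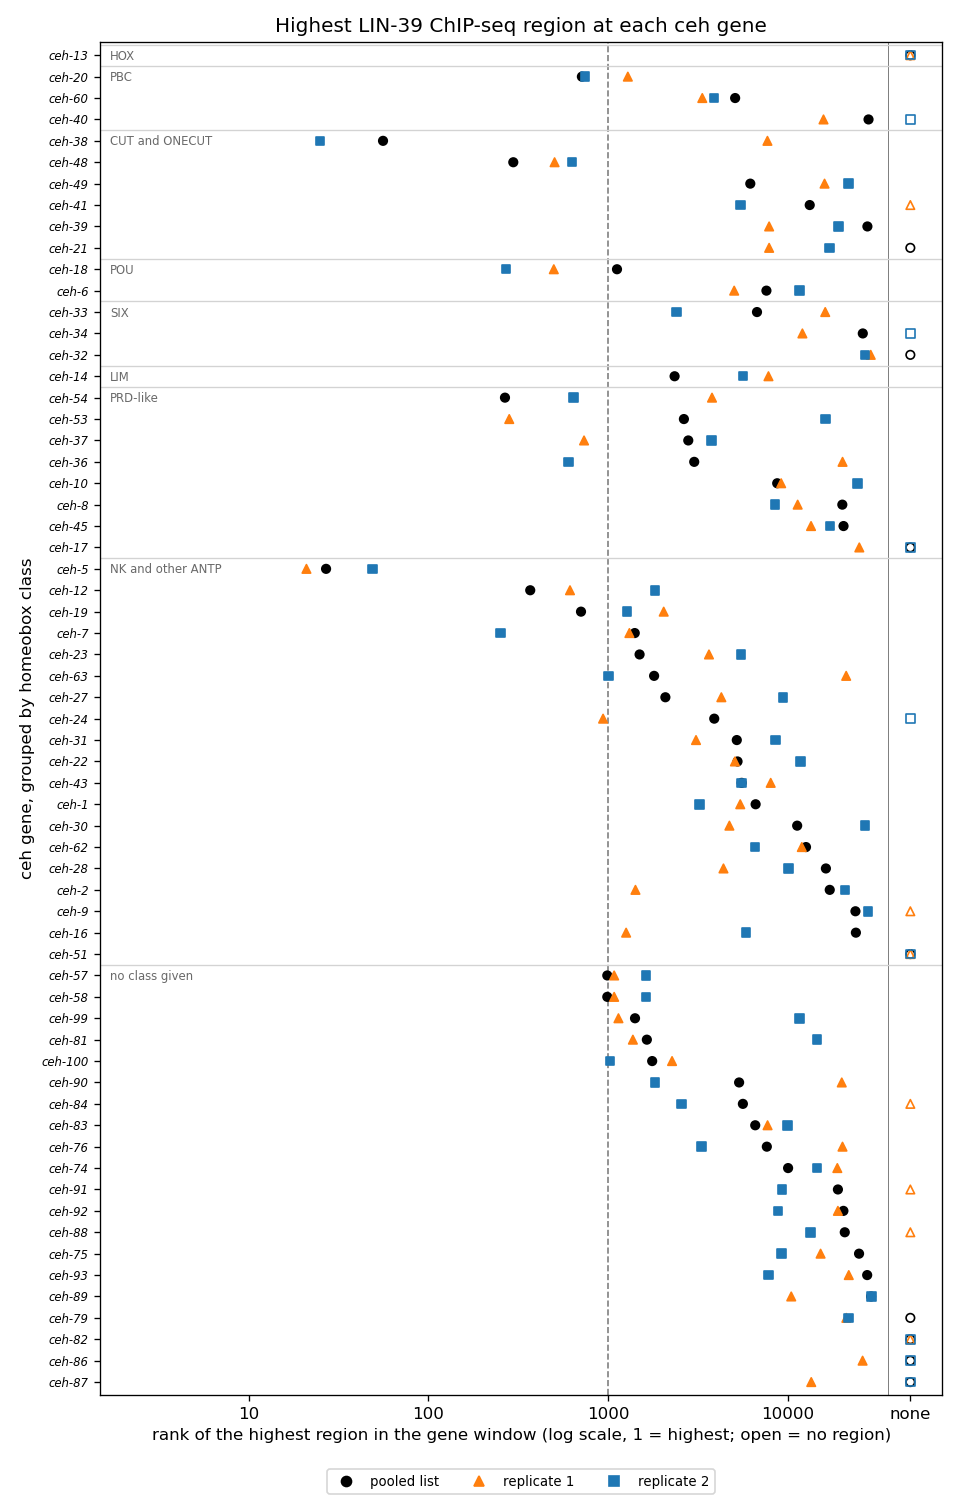
Rank of the highest region in the window of each of the 63 *ceh* genes (x axis, log scale) in the pooled list and in each replicate list, with genes on the y axis grouped by homeobox class. The dashed line is rank 1000, and open symbols at the right are genes with no region in that list, all 3 lists for *ceh-13*, *ceh-51* and *ceh-82*; the highest region can differ between lists.

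By homeobox class, the members with a region among the highest 1000 were 2 of 6 CUT and ONECUT genes, 1 of 3 PBC genes, 3 of 19 NK and other Antennapedia-type genes and 1 of 8 Paired-like genes. They were also 2 of the 20 genes for which no class is given here. The 2 POU genes, the 3 genes of the Sine oculis class, the LIM gene *ceh-14* and the Hox gene *ceh-13* had none. The share over all protein-coding genes was 7.22%. With classes this small, the counts cannot show a difference between classes. The best rank of *ceh-14*, which specifies sensory neurons and interneurons, was 2344. In the Sine oculis class, whose members pattern the head and the pharyngeal nervous system, the best rank was 6735 for *ceh-33* and 26107 for *ceh-34*. In the CUT and ONECUT class, *ceh-38*, through replicate 2 alone, and *ceh-48* had a region among the highest 1000. *ceh-49* had best ranks of 6181 in the pooled list, 15998 in replicate 1 and 21728 in replicate 2. The neighbours *ceh-41*, *ceh-21* and *ceh-39* on X had at best rank 13231, no pooled region and rank 27695. *ceh-39* is known as an X-signal element that represses *xol-1*.

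At least 1 pooled region lay in the window of 54 *ceh* genes, 85.7%, where the share over all protein-coding genes was 87.0%. With the highest 3000 pooled regions it was 20 *ceh* genes, 31.7% (21.6 to 44%), where all genes gave 19.4%. The 9 without a pooled region were *ceh-13*, *ceh-17*, *ceh-21*, *ceh-32*, *ceh-51*, *ceh-79*, *ceh-82*, *ceh-86* and *ceh-87*. *ceh-13*, the worm labial gene, *ceh-51*, a mesoderm gene, and *ceh-82* had no region in any of the 3 lists, where the share over all genes was 3.91%. The shares with a pooled region and with no region in any list were close to the background, and the share at the highest 3000 was above it. That interval again treats genes as independent, although *ceh-57* and *ceh-58* were called through the same region. A list of fixed length names the highest regions only, so an empty window does not show that LIN-39 was absent there.

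Sequence within 100 bp of the summit was searched on both strands. TGATNNAT, the core letters of the composite Hox and PBC site, was present at 32 of the 154 *ceh* regions, 20.8%, against 16.9% of the remaining pooled regions and 16.3% of windows of the same length ending at the 5′ end of protein-coding genes. Among the 9 *ceh* regions ranked 1000 or better it was present at 3, the *ceh-5* peak, the *ceh-12* region and the region of *ceh-57* and *ceh-58*, or 33.3% against 18.9% of the other regions ranked 1000 or better. TAAT, which can overlap the composite site, was present at 8 of those 9 regions, against 80.0% of the others and 89.5% of the 5′ end windows. GAGAGA was present at 3 of the 9, both *ceh-5* regions and the *ceh-19* region, against 238 of the other 991, and in 16.3% of the 5′ end windows. The median GC content of the 9 was 41.3%, against 36.3% for the others ranked 1000 or better. These are matches of letters, and with 9 regions their shares are coarse.

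Among 36 other homeobox genes, 1 had a thresholded peak, 2.78% where the share over all genes was 1.39%. A region among the highest 1000 lay at 4, 11.1% where the share over all genes was 7.22%. With counts this small, neither share can be set apart from the background. *unc-62*, the MEIS-class partner gene, had the highest of them, at rank 18 in the pooled list, 50 in replicate 1 and 12 in replicate 2. That summit lay 10762 bp downstream of the annotated 5′ end, in a 5′ untranslated region of *unc-62*, and the nearest 5′ end was that of *T28F12.1*. The others were *vab-3* (Pax6 type) at rank 309, *pax-3* at 457 and *vab-7* (Even-skipped type) at 741, with ranks in replicate 1 of 2085, 4255 and 7637 and in replicate 2 of 700, 1068 and 1715. *lin-39*, *egl-5* and *tab-1* had no pooled region. The windows of these 36 genes were longer, with a median of 9906 bp. *psa-3*, the other MEIS-type gene, had its highest pooled region at rank 1752, with a match at rank 3239 in replicate 2 and none in replicate 1. Among the genes of the 2 partner classes of LIN-39, *unc-62* and *ceh-20* had a region among the highest 1000, while *psa-3*, *ceh-60* and *ceh-40* did not.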

How the data were processed

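The authors deposited 4 lists of regions on ce11, namely a thresholded, a pooled and 2 replicate lists. Per the deposited text descriptions, the replicate lists were made from 1 alignment each with a shared control alignment, the pooled list from both, and the thresholded list by irreproducible discovery rate from the other 3. Which aligner, caller and threshold were used is not given in the sources used here. Since the scale of the deposited signal value differs between lists, ranks within a list or ratios to its median (relative signal) were used. The 4 lists on ce10 were not used, as no coordinates were converted. The replicate numbers come from the labels.

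Coordinates are 1-based on ce11. Genes came from Ensembl release 115, and no region or gene ran past a chromosome end. One class member, *ceh-44*, had no matching symbol and was not analysed here. Summits within 200 bp counted as the same region. The *ceh* genes, the classes, the other homeobox genes, the motifs and the alternatives were chosen with earlier results of these data known, and so no test was made. Named genes are those with a thresholded peak or a region among the highest 1000, the Hox and PBC genes, genes with no region, and those with most regions. Further genes were named once their values had been seen. The window, nearest-gene and matching functions were tested on simulated data in 20 runs of 300 genes and found 100% of 30 planted genes. The tools were matplotlib 3.10.9, scipy 1.17.1, pandas 2.3.3 and numpy 2.4.6 under Python 3.11.15.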

Additional observations from a re-analysis of the deposited data

How the results depend on the processing

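Of 36 alternatives, all drawn from the same lists and so not independent of each other, 31 kept the *ceh* value above that of the other genes or regions. The other 5 were the density with 2000 bp upstream, 2.87 against 2.93 per 10 kb, and with the upstream part alone, 2.92 against 2.97, the median percentile without replicate 2, the share of regions found in both replicates with 2000 bp upstream, 28.6% against 30.1%, and the share of genes with a region in the highest 1000 of both replicates when summits had to lie within 100 bp. That last share was 0% against 1.13%, since the *ceh-5* summits are 109 bp apart. With the highest 3000 pooled regions the *ceh* share was 31.7% against 19.3%. When regions were kept only for the nearest 5′ end, the density was 1.76 against 1.47 per 10 kb and the median percentile 50.5 against 49.5. With the upstream part alone the median percentile was 62.6 against 49.95. Within 100 bp, 21.4% of *ceh* regions were found in both replicates against 20.9%. Leaving out each replicate in turn gave densities of 2.94 (without replicate 1) and 3.33 (without replicate 2). In the same order, the median percentiles were 52.2 and 46.2, against 50.03 and 50.1 for regions in windows of other genes. The thresholded shares were 3.17% and 1.59%, and the shares with a region among the highest 1000 were 12.7% and 11.1%. In a setting chosen after seeing the data, a region among the highest 1000 also had to be found in both replicates, at any rank. All 9 *ceh* genes kept one, 14.3% against 6.74% of other genes. Of the 1434 other genes with such a region, 1341 kept one too. *ceh-38* passed through a replicate 1 region at rank 19666, so this setting does not show that a region was high in both replicates. Why the values moved between settings was not tested. No paired analysis was possible because the study has 1 group. The unknown depth limits what can be said of genes without a region.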
